A study of Arabidopsis thaliana with 20 samples.

Results

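The genes described here are 32 nuclear genes of Arabidopsis thaliana that encode subunits of photosystem I (12 genes), the oxygen-evolving complex of photosystem II (5 genes), other photosystem II subunits (6 genes), carriers and enzymes of photosynthetic electron transport (6 genes) and the chloroplast ATP synthase (3 genes). They were chosen by locus identifier for their function, and all 32 were found among the 30613 features of the expression table. Of the 2291 N6-methyladenosine (m6A) peaks, 9 lay on 9 of these genes and the other 23 genes carried no peak.

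Chromatin-associated RNA, which is enriched in transcripts still attached to their template, was taken from 10-day-old whole seedlings. All were in the Col-0 background, and the genotypes were Col-0 itself (wild type) and lines that overexpress human ALKBH5, an RNA m6A demethylase. The construct was the full-length protein (FL), the same with the H204A change (inactive FL), the protein without its cIDR (del-cIDR), or del-cIDR with H204A (inactive del-cIDR). The study calls the H204A forms inactive, and the series title speaks of intrinsically disordered regions that restrain targeting. MeRIP-seq gave 2 immunoprecipitated (IP) and 2 input libraries per genotype. The labels name neither the promoter nor independent lines, so the effect of a construct and that of its plant line cannot be told apart.

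Photosystem II takes electrons from water, and plastocyanin carries them from the cytochrome b6f complex to photosystem I. Ferredoxin and ferredoxin-NADP reductase then pass them to NADPH, while the ATP synthase uses the proton gradient across the thylakoid membrane. The core subunits of these complexes are encoded in the plastid, and the subunits described here are made from nuclear genes and imported, so each complex draws on both genomes. In seedlings the nuclear genes are switched on by light and set by the circadian clock and by signals from the plastid.

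The input values are the signal per gene that was deposited, apparently scaled to ERCC spike-ins, and the m6A values are ratios scaled to an m6A spike-in. Sequencing depth is unknown, so no counting interval is given; the value of each of the 2 libraries of a group is given in turn, and changes carry the SE of the fit. Over the 32 genes the libraries of a pair differed by a median of 0.027 to 0.098 on the log2 scale in the input. Over all peaks the corresponding m6A difference was larger, 0.233 to 0.884, with the widest gap in FL. Fold changes are on the log2(signal + 6.9386) scale for the input and on the log2(ratio + 0.54159) scale for m6A. A gene was called when its Benjamini-Hochberg adjusted p from limma, over the whole table, was under 0.05. The ERCC sum was similar in all 10 input libraries, 109313 to 110569, but the general level of the plant signal differed, for causes not tested. The median of all 30613 features stood above Col-0 by 0.67 for FL, 0.22 for inactive FL, 0.56 for del-cIDR and 0.31 for its inactive form. A second background was therefore used, 15341 nuclear protein-coding genes with mean levels between the lowest and highest of the 32, whose medians were 0.39, 0.12, 0.43 and 0.15. The 4 comparisons with Col-0 share the same Col-0 libraries.

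The signal of the 32 genes was higher in both del-cIDR lines and, as deposited, mostly close to Col-0 in both full-length lines. In inactive del-cIDR all 32 genes rose, by a median of 1.24 on the log2 scale (range 0.30 to 2.37), and in del-cIDR 31 of 32 rose, by a median of 0.82 (0.09 to 1.36). In inactive del-cIDR 32.4% of all features were called higher and 7.84% lower (36.4% and 14.1% within the window of similar level). For del-cIDR these shares were 65.5% and 1.85% (71.5% and 3.03% within the window), so most genes of any function were called higher there. The summed signal of the 32 genes was 65579 and 64228 in the Col-0 libraries, 63493 and 61895 in FL, 64131 and 67474 in inactive FL, 100693 and 102610 in del-cIDR, and 123776 and 125458 in inactive del-cIDR. The del-cIDR libraries thus lay above all 6 libraries of Col-0 and the full-length lines, and those of inactive del-cIDR lay higher still.

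**Figure D1:**
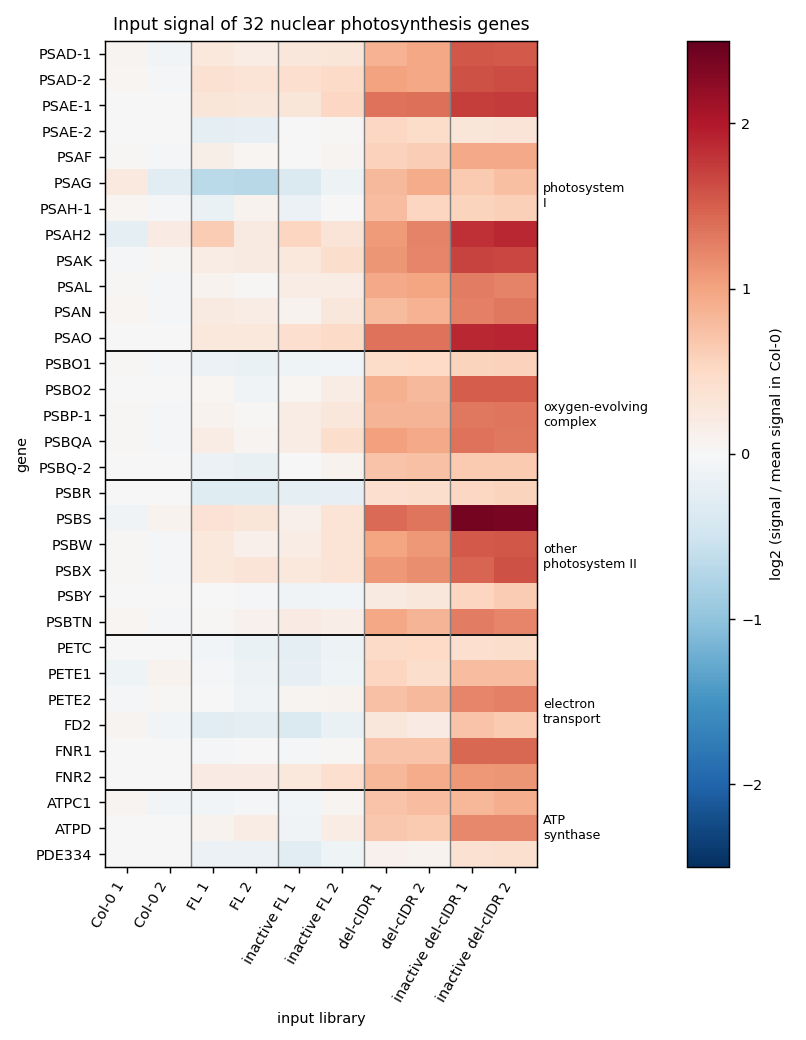
Input signal of each of the 32 genes in each of the 10 input libraries, as log2 of the signal over its mean in Col-0 (colour scale), with genes in rows grouped by role and libraries in columns. The rows are darkest red in the inactive del-cIDR libraries, with PSBS the highest, and paler in del-cIDR, while FL and inactive FL stay near 0.

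Photosystem I genes rose together in the del-cIDR lines, all 12 of 12 in each, with a median of 0.94 for the active and 1.41 for the inactive form. PSAO (AT1G08380), a small subunit on the side where light-harvesting complex II docks, had a signal of 998.8 and 1002 in Col-0, 1200 and 1196 in FL, 1346 and 1389 in inactive FL, 2558 and 2572 in del-cIDR, and 3680 and 3753 in inactive del-cIDR. Its groups were fully separated in that order. PSAO rose by 1.35 ± 0.05 (SE) in del-cIDR (limma adjusted p = 4.19e-29) and by 1.89 ± 0.05 in inactive del-cIDR (adjusted p = 7.16e-36), the smallest p of the 32 genes in both comparisons. These p-values rest on the spread within genotypes, pooled over the 5 genotypes and drawn by limma towards the trend over all features. Whether the 2 libraries of a genotype come from separate cultures is not stated, and that spread may be technical.

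PSAF (AT1G31330), which helps plastocyanin dock, had the highest Col-0 signal of the photosystem I genes, with 5055 and 4848 in Col-0, 5446 and 5124 in FL, 4926 and 5207 in inactive FL, 7348 and 7593 in del-cIDR, and 9509 and 9540 in inactive del-cIDR. The del-cIDR and inactive del-cIDR libraries lay above the other 6, and the increases were 0.59 ± 0.04 and 0.94 ± 0.04. PSAD and PSAE form the docking surface for ferredoxin, and each has a pair of genes. PSAD-1 (AT4G02770) measured 1454 and 1324 in Col-0, 1670 and 1588 in FL, 1693 and 1705 in inactive FL, 2546 and 2727 in del-cIDR, and 4077 and 4039 in inactive del-cIDR. For PSAD-2 (AT1G03130) the values were 647.6 and 611.7, then 818.8 and 798.3, 839.7 and 872.7, 1263 and 1225, and 1894 and 1962 in the same order of genotypes. Both PSAD genes lay above Col-0 in every transgenic library and highest in inactive del-cIDR.

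PSAE-2 (AT2G20260) went another way. It measured 801.4 and 783.6 in Col-0, 668.1 and 684.6 in FL, 785.1 and 814.2 in inactive FL, 1142 and 1087 in del-cIDR, and 972.4 and 988.9 in inactive del-cIDR. It rose by 0.49 ± 0.06 in del-cIDR and by 0.30 ± 0.06 in inactive del-cIDR, the smallest increase of the 32 genes in the latter. PSAG (AT1G55670), a peripheral subunit, is a low-signal gene that shares its position with another annotated gene, so its reads cannot be assigned with certainty. Its signal was 55.3 and 38.5 in Col-0, 29.4 and 29.2 in FL, 36.4 and 42.8 in inactive FL, 82 and 89.4 in del-cIDR, and 74.1 and 79.5 in inactive del-cIDR. The Col-0 libraries differed more from each other for PSAG than for any other of the 32 genes, by 0.453 on the log2 scale, yet both lay below all 4 libraries of the del-cIDR forms.

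All 5 genes of the oxygen-evolving complex, the proteins that shield the manganese cluster where water is split, rose in both del-cIDR forms, with medians of 0.85 and 1.32. PSBO1 (AT5G66570), the main form of the manganese-stabilising protein, had the highest signal of the 32 genes both as deposited and per kilobase of gene length. It measured 19646 and 19065 in Col-0, 17568 and 17171 in FL, 18047 and 18383 in inactive FL, 26501 and 27208 in del-cIDR, and 28398 and 29019 in inactive del-cIDR. Its isoform gene PSBO2 (AT3G50820) measured 1906 and 1898, 1978 and 1783, 1972 and 2177, 3531 and 3347, and 5434 and 5451 in that order. PSBO1 rose by 0.57 ± 0.04 in inactive del-cIDR and PSBO2 by 1.51 ± 0.05.

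PSBP-1 (AT1G06680), needed for calcium and chloride retention at the cluster, measured 4053 and 3889 in Col-0, 4225 and 4075 in FL, 4526 and 4849 in inactive FL, 7119 and 7194 in del-cIDR, and 9845 and 9973 in inactive del-cIDR. It rose by 0.85 ± 0.04 in del-cIDR (limma adjusted p = 4.72e-24) and by 1.32 ± 0.04 in inactive del-cIDR (adjusted p = 9.04e-33). PSBQ-2 (AT4G05180), of the protein that binds beside PSBP, measured 3032 and 2985 in Col-0, 2702 and 2646 in FL, 2986 and 3193 in inactive FL, 4944 and 5023 in del-cIDR, and 4719 and 4704 in inactive del-cIDR. PSBP-1 was thus highest in the inactive form and PSBQ-2 in the active one, although for PSBQ-2 the difference between the del-cIDR forms, 0.08 ± 0.04, was not called.

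Among the other photosystem II genes all 6 rose in both del-cIDR forms, with medians of 0.97 and 1.38. PSBS (AT1G44575) encodes the sensor of thylakoid lumen pH that triggers energy-dependent quenching, the rapid release of excess light energy as heat. Its signal was 434.9 and 488.0 in Col-0, 593.8 and 569.3 in FL, 501.0 and 583.9 in inactive FL, 1230 and 1165 in del-cIDR, and 2436 and 2399 in inactive del-cIDR. PSBS had the largest fitted increase of the 32 genes in both comparisons, 1.36 ± 0.07 in del-cIDR (limma adjusted p = 1.88e-23) and 2.37 ± 0.07 in inactive del-cIDR (adjusted p = 2.1e-34). The inactive del-cIDR libraries stood apart from all others, and the del-cIDR libraries from the remaining 6.

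PSBR (AT1G79040), a lumenal subunit that helps anchor PSBP, had the highest signal of this group, with 6543 and 6629 in Col-0, 5328 and 5330 in FL, 5543 and 5723 in inactive FL, 8770 and 8900 in del-cIDR, and 9450 and 9637 in inactive del-cIDR. Both full-length lines lay below Col-0 and both del-cIDR lines above it. PSBY (AT1G67740), a small membrane subunit near cytochrome b559, measured 964.4 and 985.6, 965.9 and 960.2, 920.7 and 928.4, 1144 and 1194, and 1419 and 1511 in the same order. It rose by 0.26 ± 0.06 and 0.58 ± 0.06, among the smaller increases of the 32 genes.

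The 6 genes of electron transport rose in both del-cIDR forms, with medians of 0.60 and 0.93. PETC (AT4G03280), the Rieske iron-sulfur protein of the cytochrome b6f complex, had the highest Col-0 signal of this group and measured 2513 and 2460 in Col-0, 2362 and 2217 in FL, 2137 and 2284 in inactive FL, 3475 and 3524 in del-cIDR, and 3321 and 3388 in inactive del-cIDR. PETE2 (AT1G20340), the major plastocyanin gene, measured 2075 and 2143, 2089 and 1981, 2215 and 2254, 3481 and 3685, and 4935 and 5061. For PETC the difference between the del-cIDR forms, 0.06 ± 0.05, was not called, and PETE2 was higher in the inactive one in both libraries.

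FD2 (AT1G60950), the main leaf ferredoxin, measured 924.3 and 845.9 in Col-0, 737.8 and 758.2 in FL, 692.9 and 784.0 in inactive FL, 1083 and 1017 in del-cIDR, and 1451 and 1385 in inactive del-cIDR. FNR1 (AT5G66190) and FNR2 (AT1G20020) encode the leaf ferredoxin-NADP reductases. FNR1 measured 1659 and 1668 in Col-0, 1601 and 1671 in FL, 1611 and 1689 in inactive FL, 2722 and 2726 in del-cIDR, and 4502 and 4500 in inactive del-cIDR. FNR2 measured 1394 and 1419, 1617 and 1619, 1685 and 1877, 2486 and 2672, and 2981 and 3029. FNR1 in the full-length lines overlapped Col-0, while FNR2 lay above Col-0 in every transgenic library. FNR1 rose by 0.71 ± 0.05 and 1.43 ± 0.05 in del-cIDR and inactive del-cIDR.

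Of the 3 ATP synthase genes 2 rose in del-cIDR (median 0.65) and 3 in its inactive form (median 0.87). PDE334 (AT4G32260), a peripheral-stalk subunit, measured 2341 and 2372 in Col-0, 2142 and 2115 in FL, 1960 and 2193 in inactive FL, 2523 and 2492 in del-cIDR, and 3077 and 3125 in inactive del-cIDR. It was the single gene of the 32 not called in del-cIDR, at 0.09 ± 0.05 (limma adjusted p = 0.107), although its libraries did not overlap those of Col-0. ATPC1 (AT4G04640), the gamma subunit of the rotor, rose by 0.74 ± 0.05 and 0.87 ± 0.05.

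**Figure D2:**
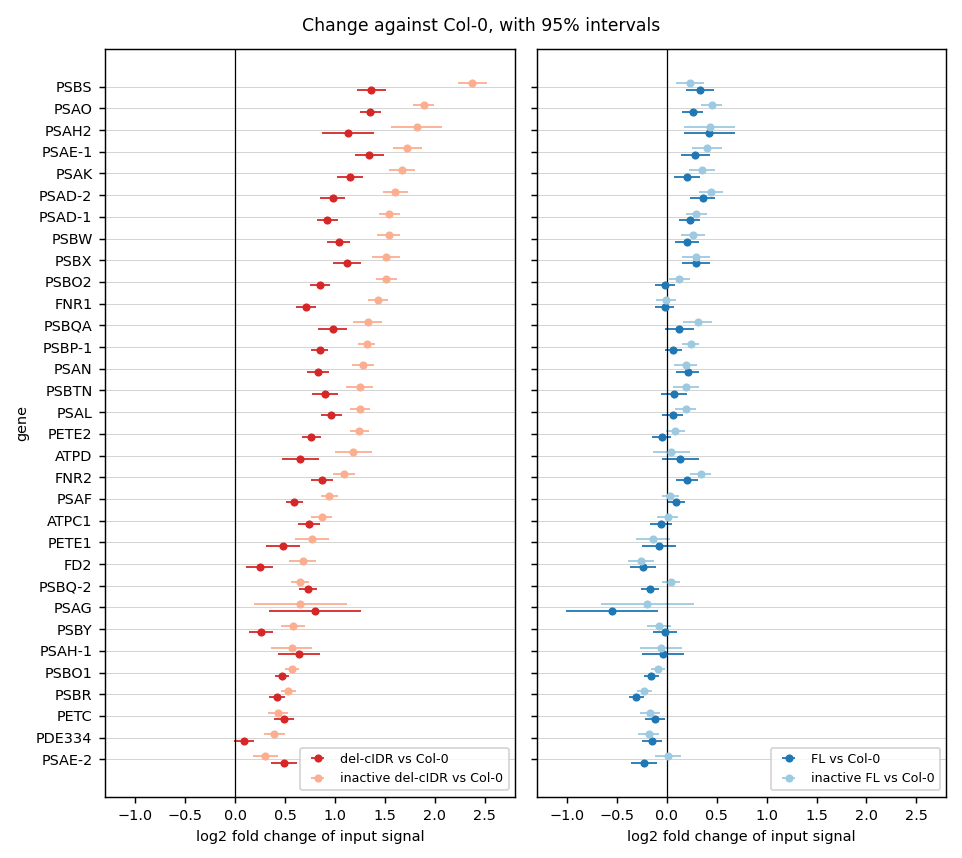
Log2 fold change of input signal against Col-0 for each of the 32 genes, with 95% intervals from limma; del-cIDR forms are on the left and full-length forms on the right, and genes are ordered by the change in inactive del-cIDR. Points on the left run up to 2.37 (PSBS) with PDE334 in del-cIDR alone reaching 0, while points on the right lie between -0.55 and 0.45.

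How much of the rise in del-cIDR exceeds the general shift depends on the scaling. With each library centred on the median of its nuclear features (median-centring), 16 of the 32 genes were called higher and 4 lower in del-cIDR (median 0.20), and centring on the window of similar level gave 21 higher and 3 lower (median 0.37). Under median-centring 9 of the 32 turned from above to below Col-0. The 4 called lower were PDE334 at -0.53, FD2 at -0.37, PSBY at -0.36 and PSBR at -0.19, and those not called were PSBO1 and PETE1 at -0.14, PSAE-2 at -0.13, PETC at -0.12 and PSAF at -0.02. Window centring turned 4, of which PDE334 (-0.36), FD2 (-0.20) and PSBY (-0.19) were called lower and PSBR (-0.02) was not. PSBS kept 0.75 and PSAO 0.74 under median-centring. For inactive del-cIDR median-centring left 25 genes called higher and 0 lower, and window centring 30 and 0, with PSAE-2 at -0.08 under the former.

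The comparison between constructs did not hang on that choice. Against FL, all 32 genes were higher in del-cIDR, by a median of 0.73 (0.24 to 1.35), where 10.6% of all features were called higher and 20% lower (17.4% and 17.3% within the window) and the median of all features was -0.14. All 32 were called under both centrings as well. PSAO was higher by 1.09 ± 0.05, PSBQ-2 by 0.90 ± 0.04 and PSBP-1 by 0.79 ± 0.04, the 3 of smallest p. PSAG had the largest fitted difference, 1.35 ± 0.23, and PDE334 the smallest, 0.24 ± 0.05. Between the inactive forms, a comparison added after the data had been seen, all 32 genes were higher in inactive del-cIDR than in inactive FL, by a median of 1.06 (0.29 to 2.15), where 11.6% of all features were called higher and 8.33% lower (18.9% and 14.7% within the window). PSBS differed by 2.15 ± 0.07, FNR1 by 1.44 ± 0.05 and PSAO by 1.44 ± 0.05. Both sides of the latter comparison carry the H204A change.

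In the full-length lines the changes were small and mixed. In FL 12 genes were called higher, 8 lower and 12 not called, with a median of 0.06, while 75.5% of all features were called higher and 1.47% lower (70.9% and 2.16% within the window). PSAD-2 was at 0.36 ± 0.06 (limma adjusted p = 2.08e-06), PSBS at 0.33 ± 0.07 and PSAO at 0.26 ± 0.05 above Col-0. PSBR was at -0.31 ± 0.04 (adjusted p = 4.14e-09), PSBO1 at -0.16 ± 0.04 and PSBQ-2 at -0.17 ± 0.04. Directions here depended on scaling: under median-centring all 32 genes were called lower in FL (median -0.78), and relative to the window 29 were (median -0.38), with PSAD-2, PSBS and PSAO then below Col-0 too.

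In inactive FL 15 genes were called higher, 4 lower and 13 not called, with a median of 0.10, against 16.9% higher and 3.12% lower over all features (21.3% and 5.46% within the window). PSAO was at 0.45 ± 0.05 (limma adjusted p = 7.2e-10), PSAD-2 at 0.44 ± 0.06 and FNR2 at 0.34 ± 0.05. PSBR was at -0.23 ± 0.04, FD2 at -0.26 ± 0.07 and PDE334 at -0.18 ± 0.05. The FD2 call was lost without Col-0 replicate 1 (-0.20) or inactive FL replicate 1 (-0.17), and that of PDE334 without Col-0 replicate 2 (-0.17) or inactive FL replicate 1 (-0.10). Median-centring left 0 higher and 14 lower, and window centring 7 higher and 8 lower. PSBR lay below Col-0 in both full-length lines as deposited.

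The active and inactive forms were compared next, and their differences are called activity effects below. As the labels name no independent lines, catalysis and differences between plant lines cannot be told apart in them. In del-cIDR 26 genes were lower and 1 higher than in inactive del-cIDR, with a median of -0.36, while 2.76% of all features were called lower and 28.7% higher (4.63% and 47.1% within the window). FNR1 was at -0.72 ± 0.05 (limma adjusted p = 6.75e-18), PSBS was at -1.01 ± 0.07 (adjusted p = 1.43e-17) and PSBO2 at -0.66 ± 0.05 (adjusted p = 7.59e-16). PSAE-2 was the gene called higher, at 0.18 ± 0.06 (adjusted p = 0.0243), and this call was lost without del-cIDR replicate 1 (0.15), inactive del-cIDR replicate 1 (0.17) or inactive del-cIDR replicate 2 (0.20), and turned to -0.05 under both centrings. In FL 0 genes were higher and 10 lower than in inactive FL, with a median of -0.07, where 0.751% of all features were called lower and 58.1% higher (0.952% and 59.4% within the window). PSBQ-2 was at -0.21 ± 0.04, PSBP-1 at -0.17 ± 0.04 and PSAE-2 at -0.24 ± 0.06. That count ran from 1 without the variance trend to 32 under either centring, and leaving out FL replicate 2 gave 4.

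The difference between these activity effects was tested directly. It was called for 21 of the 32 genes, 19 negative and 2 positive, against 13.9% negative and 6.15% positive over all features (13.3% and 10.5% within the window), with a median of -0.34. A negative value means that the change from the inactive to the active form was lower in del-cIDR than in FL, where it could be positive. PSBS had the largest difference, -1.11 ± 0.10 (limma adjusted p = 3.2e-13), followed in p by FNR1 at -0.71 ± 0.07 (adjusted p = 7.62e-12) and PSAD-1 at -0.56 ± 0.07 (adjusted p = 3.54e-08). PSAE-2, at 0.42 ± 0.09 (adjusted p = 0.00042), and PSBQ-2, at 0.29 ± 0.06 (adjusted p = 0.000547), were positive. Under median-centring 6 were called positive and 2 negative, and relative to the window 2 and 18, so median-centring turned the balance and window centring did not; PSBS stayed negative under both (-0.79 and -1.04).

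Several subunits have a pair of nuclear genes, and the ratio within most pairs differed between genotypes. The ratio of PSAE-1 to PSAE-2 was 0.481 and 0.497 in the Col-0 libraries, 0.714 and 0.685 in FL, 0.605 and 0.679 in inactive FL, 0.864 and 0.922 in del-cIDR, and 1.33 and 1.31 in inactive del-cIDR, so the gene with the lower signal in Col-0 became the one with the higher. The ratio of PSBO2 to PSBO1 was 0.097 and 0.0996 in Col-0, 0.133 and 0.123 in del-cIDR and 0.191 and 0.188 in inactive del-cIDR. That of PSAH2 to PSAH-1, which encode a subunit of the light-harvesting complex II docking site, had a mean of 0.507 in Col-0 and 1.22 in inactive del-cIDR, with Col-0 libraries at 0.411 and 0.603. The mean ratio of PSBQA to PSBQ-2 was 0.17 in Col-0 and 0.275 in inactive del-cIDR, and that of PETE2 to PETE1 was 5.32 and 7.35. FNR1 to FNR2 had a mean of 1.18 in Col-0, 1.5 in inactive del-cIDR, and lower means of 1.01 in FL, 0.928 in inactive FL and 1.06 in del-cIDR. The ratio of PSAD-2 to PSAD-1 had means between 0.454 and 0.504 in all 5 genotypes. A ratio within a library does not depend on its scaling, but pairs of similar sequence can exchange reads, and these ratios are given as descriptions without a test. PSAE-1, PSAE-2, PSAH-1 and PSAH2 also overlap other annotated genes, as do PSAG, PSAD-2, PSAN, PSBP-1, PSBR and FNR1, 10 of the 32 in all. Reads of these 10 genes cannot all be assigned with certainty.

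**Figure D3:**
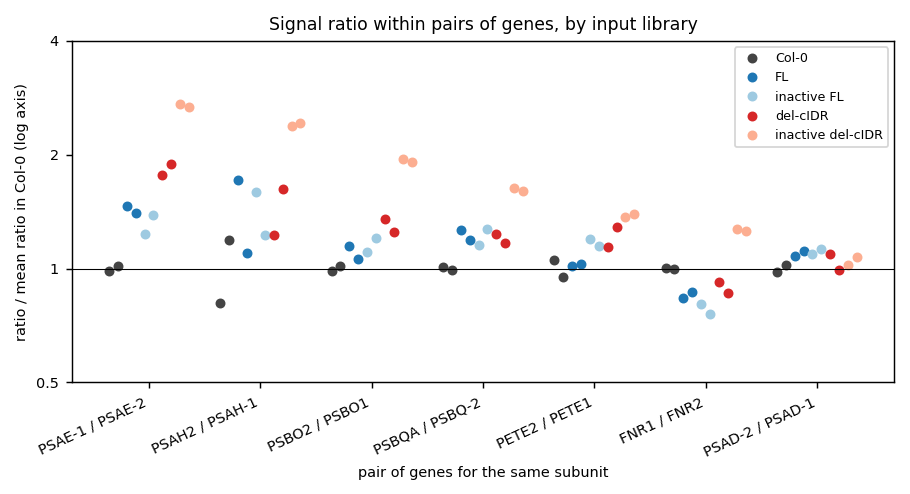
Ratio of input signals within 7 pairs of genes for the same subunit, in each of the 10 input libraries, divided by the mean ratio in Col-0 (log axis). The inactive del-cIDR libraries lie highest in every pair except PSAD-2 to PSAD-1, whose points stay near 1.

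Other photosynthesis genes were counted in the same comparisons, against 65.5% of all features called higher for del-cIDR and 32.4% for its inactive form. Of 19 measured antenna genes, which encode the chlorophyll-binding light-harvesting proteins, 18 rose with del-cIDR (median 1.12) and 17 with its inactive form (median 1.65), and 0 fell with either. CAB2, an antenna gene of photosystem II, rose by 2.21 ± 0.04 and 2.91 ± 0.04. Of 16 Rubisco and Calvin cycle genes, 13 rose and 1 fell with del-cIDR (median 0.67), and 16 rose with the inactive form (median 1.23), with RCA, Rubisco activase, at 1.20 ± 0.04 and 2.12 ± 0.04. Of 14 measured genes of chlorophyll synthesis and the GLK regulators, 13 and 14 rose (medians 0.65 and 0.93), among them HEMA1, which starts tetrapyrrole synthesis, at 0.84 ± 0.05 and 1.50 ± 0.05. Of 17 genes for photosystem assembly and regulation, 10 rose in del-cIDR (median 0.34), a share below that of all features, and 12 rose and 1 fell with its inactive form (median 0.33). A mixed list of 7 further genes held minor or non-leaf isoforms, and also PSI-P and AT2G26500, whose Col-0 means were 1232 and 1965. Of these 7 genes 5 rose in each line (medians 0.39 and 0.85), which in del-cIDR is near the share of all features. These included PSI-P at 0.26 ± 0.06 and 1.31 ± 0.06. Under median-centring the counts higher and lower in del-cIDR were 11 and 1 for antenna and 5 and 4 for Rubisco and Calvin cycle. They were 4 and 1 for chlorophyll synthesis, 2 and 9 for assembly and 0 and 3 for the mixed list. The balance of the assembly and mixed lists thus turned. The same counts for inactive del-cIDR were 16 and 1, 13 and 1, 12 and 0, 6 and 5, and 4 and 1. As deposited, 10 of the 19 antenna genes were called higher and 4 lower in FL, and 12 and 1 in inactive FL. Over all features 75.5% were called higher in FL and 16.9% in inactive FL. CAB2 had a mean signal of 5310 in Col-0, 13661 in FL and 13672 in inactive FL. Under median-centring the antenna counts higher and lower were 5 and 13 in FL, and 7 and 5 in inactive FL.

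For the plastid-encoded partners of these complexes the counts were different. All 32 plastid loci listed rose in del-cIDR (median 0.62), whereas in inactive del-cIDR 13 rose, 3 fell and 16 were not called (median 0.07). Of all features 65.5% were higher in del-cIDR and 32.4% in its inactive form (71.5% and 36.4% within the window of similar level), so the plastid count in the latter is near the background. In del-cIDR against its inactive form 31 of the 32 plastid loci were higher (median 0.55; 28.7% of all features), while 26 of the 32 nuclear genes were lower (median -0.36). In FL 28 plastid loci fell (median -0.38), where 1.47% of all features were lower. Under median-centring 4 plastid loci were higher and 5 lower in del-cIDR, 1 was higher and 22 lower in its inactive form, and 16 were higher and 0 lower between the del-cIDR forms, where 0 of the nuclear genes were higher and 27 lower. The difference between nuclear and plastid genes was not itself tested.

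**Figure D4:**
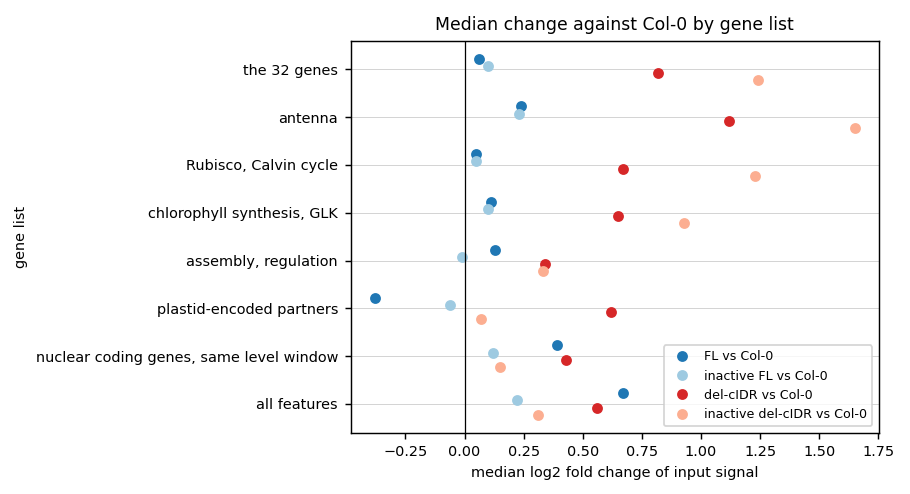
Median log2 fold change of input signal against Col-0 for the 32 genes, 5 further photosynthesis lists, nuclear protein-coding genes of similar level and all features, with 1 point per transgenic line. In inactive del-cIDR the nuclear photosynthesis lists lie between 0.33 and 1.65, while the plastid-encoded partners lie at 0.07 and all features at 0.31.

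Other transcripts moved beside these results. TOC1, an evening component of the circadian clock, measured 4390 and 4406 in Col-0, 4197 and 4212 in del-cIDR, and 1376 and 1321 in inactive del-cIDR, a change of -1.70 ± 0.04 in the latter. In del-cIDR the clock genes GI and PRR5 were higher by 1.34 ± 0.05 and 1.46 ± 0.06. Of the 4 morning genes PRR9 was 4.29-fold higher there (SE 0.14 on the log2 scale) and PRR7 was higher by 0.56 ± 0.04. LHY was at -1.52 ± 0.11 and CCA1 at -0.40 ± 0.07. The rise of PRR9 was not particular to del-cIDR. Its mean climbed from 48.8 for Col-0 to 178.8 (FL), 154.3 (FL with H204A) and 242.5 (del-cIDR with H204A). PRR7 averaged 4171 for Col-0, 6137 for del-cIDR and 6487 for FL. Each of the 4 morning genes was called higher when FL was compared with Col-0 (median 1.24), beside 75.5% of all features. CCA1 and LHY thus lay above Col-0 in FL and below it in del-cIDR. All 5 evening clock genes listed were higher in del-cIDR than in inactive del-cIDR, a direction called for 28.7% of all features and 47.1% of the window. Set beside Col-0 instead, 3 of these 5 went uncalled in del-cIDR (median 0.03). The inactive form had 3 evening genes called down and PRR5 called up, at 0.16, with a median of -1.21. Mean GI signal was 1075 there and 1135 for Col-0. The labels give no hour of collection. The summed signal of 3 green-shoot markers, themselves photosynthesis genes, was 19528 to 19801 in Col-0, 22376 to 24252 in the full-length lines, 39559 and 40334 in del-cIDR, and 66622 and 67480 in inactive del-cIDR. The sum of 4 root endodermis markers was 120.9 and 149.3 in Col-0, 206.5 and 220.5 in FL, 130.8 and 152.0 in inactive FL, 195.7 and 196.8 in del-cIDR, and 93.1 and 100.7 in inactive del-cIDR. The green-shoot sum was highest and the endodermis sum lowest in inactive del-cIDR, although 3 of the 4 endodermis markers lay above Col-0 there (median 0.13) and 1 was called lower, at -1.09. Summed over 7 root hair and uptake markers the signal was 7747 and 7829 in Col-0, 9323 and 9864 in del-cIDR, and 12754 and 13003 in inactive del-cIDR, where 2 of the 7 were called higher and 0 lower (median 0.29, range -0.48 to 1.52). For 3 shoot epidermis markers the sums were 5143 and 5170, 6650 and 6757, and 6009 and 6078 in those genotypes, and for 2 seed storage markers 424.6 and 466.9, 712.1 and 759.5, and 501.3 and 528.4. The part of clock phase and of tissue make-up in the photosynthesis changes was not tested, and in whole seedlings more green cells and more transcript per cell cannot be told apart.

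The m6A peaks on these genes had low ratios. Of the 32 genes 9 carried a peak, where the whole data held 2291 peaks and 30613 features. The 9 peaks lay on PSAD-1, PSAE-2, PSAF and PSAG of photosystem I, PSBO1, PSBR and PSBY of photosystem II, PETE2 and PDE334. The PSAF peak lay on chromosome 1 from 11215745 to 11216069 (TAIR10, as the deposited table gives it), the PSBO1 peak on chromosome 5 from 26569633 to 26569942 and the PSAE-2 peak on chromosome 2 from 8737423 to 8737631. The PSAG peak overlaps a second annotated gene. Ranked from the lowest of 2291 peaks, the 9 took ranks from 16 to 620 over the 10 IP libraries, and without PSAE-2 none passed rank 360. They therefore sat near the lower end of the table in every library, Col-0 included.

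All 9 peaks were lower than in Col-0 in all 4 transgenic lines. Ratios in Col-0 ran from 2.6 to 4.21, and in the 8 transgenic libraries from 0.144 to 1.02 for 8 of the peaks and from 0.682 to 1.73 for that on PSAE-2. The PSAF peak was at 4.21 and 4.18 in Col-0, 0.555 and 0.798 in FL, 0.411 and 0.256 in inactive FL, 0.208 and 0.306 in del-cIDR, and 0.243 and 0.618 in inactive del-cIDR. On PSBO1 the ratios were 3.83 and 3.48, 0.477 and 0.906, 0.473 and 0.473, 0.283 and 0.359, and 0.259 and 0.512 in the same order. In both peaks every transgenic library lay below both Col-0 libraries, and the values of FL overlapped those of inactive del-cIDR.

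The PSAE-2 peak was at 3.86 and 3.63 in Col-0, 0.682 and 1.73 in FL, 1.21 and 1.23 in inactive FL, 1.02 and 1.03 in del-cIDR, and 0.747 and 1.46 in inactive del-cIDR. It had the highest ratio of the 9 peaks in all 8 transgenic libraries and the smallest fall in each line, from -1.28 to -1.45 on the log2 scale. The PSAD-1 peak was at 3.55 and 3.25, 0.487 and 0.857, 0.299 and 0.263, 0.233 and 0.267, and 0.216 and 0.479 in the same order of genotypes. For PSAG the ratios were 3.06 and 2.6, 0.268 and 0.659, 0.349 and 0.344, 0.17 and 0.222, and 0.233 and 0.321. Of the transgenic lines FL had the widest gap between its libraries in all 3 peaks.

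On the remaining photosystem II genes, the PSBR peak was at 3.34 and 2.69 in Col-0, 0.423 and 0.72 in FL, 0.235 and 0.25 in inactive FL, 0.17 and 0.262 in del-cIDR, and 0.27 and 0.404 in inactive del-cIDR. The PSBY peak was at 3.94 and 3.14, 0.343 and 1.02, 0.386 and 0.259, 0.189 and 0.195, and 0.22 and 0.405 in that order. Both had their highest transgenic value in FL replicate 2. The PETE2 peak was at 3.35 and 2.95, 0.318 and 0.547, 0.262 and 0.313, 0.18 and 0.181, and 0.197 and 0.317. On PDE334 the ratios were 3.01 and 2.7, 0.27 and 0.652, 0.289 and 0.28, 0.144 and 0.173, and 0.183 and 0.278. No transgenic library reached a Col-0 library in any of the 9 peaks.

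The median change of the 9 peaks was -1.78 for FL, -2.15 for its H204A form, -2.28 for del-cIDR and -2.16 for its H204A form, and 9 of 9 were called lower by limma in each. Over all peaks 22.7%, 21.8%, 79.8% and 24.1% were called lower, with medians of -1, -0.97, -1.52 and -0.95. The fall was not particular to these genes: all 10 peaks on antenna genes were called lower in each line, with medians of -1.56, -1.99, -2.16 and -2.04. The lower ratios were thus found in lines with and without the H204A change. The pseudocount of 0.54159 is larger than many of the transgenic ratios, so fitted changes are smaller than those of the ratios themselves. For PETE2 the mean ratio was 3.15 in Col-0 and 0.18 in del-cIDR, and the fitted fall was 5.11-fold. The whole lower end of the table moved in the same way: its 5th percentile was 3.25 and 2.97 in the Col-0 libraries and between 0.283 and 0.966 in the other 8. The median of the 9 peaks was 3.55 and 3.14 in Col-0 and between 0.189 and 0.798 elsewhere. With libraries aligned at their 5th percentile, an alternative added after the data had been seen, the medians of the 9 peaks were between -0.16 and -0.30 and 0 were called in any line. Median-centring also left 0 called, with medians between -0.81 and -1.27.

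**Figure D5:**
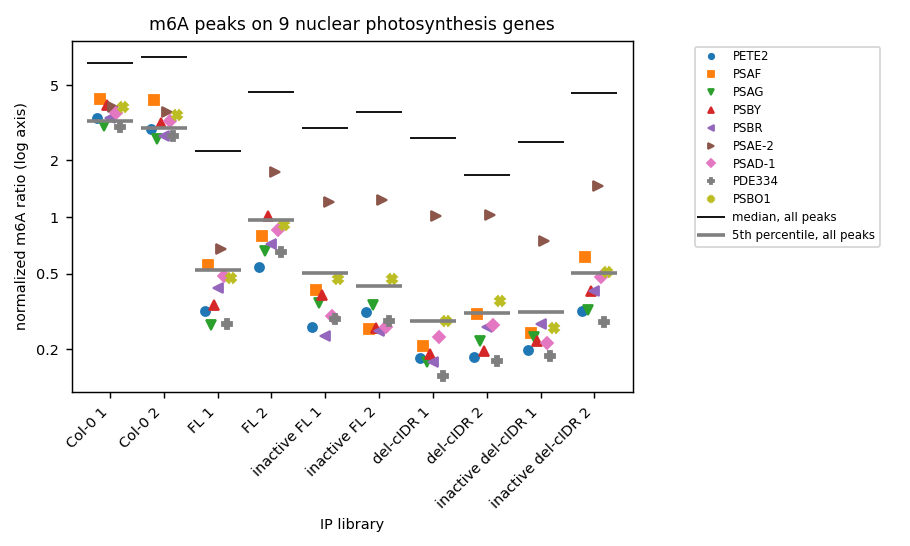
Normalized m6A ratio (log axis) of the 9 peaks in each of the 10 IP libraries, with the median (black bars) and the 5th percentile (grey bars) of all 2291 peaks. In each library the peaks other than PSAE-2 gather around the grey bar, which lies near 3 in Col-0 and below 1 in the transgenic lines.

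Between transgenic lines 0 of the 9 peaks were called by limma. In del-cIDR against inactive del-cIDR the median difference was -0.15, with 0 peaks at an unadjusted p under 0.05, and 0.175% of all peaks called lower. FL against inactive FL gave a median of 0.26 and 2 peaks at that unadjusted level, and 0.218% of all peaks were called higher. For del-cIDR against FL the median was -0.49, with 6 peaks at that level and 0.873% of all peaks called lower, and leaving out FL replicate 1 gave 5 called peaks. The difference of the activity effects had a median of -0.39 and 4 peaks at that level, and inactive del-cIDR against inactive FL a median of -0.06 and 0. A missed threshold with 2 libraries per group does not show that the lines were alike. The pseudocount also shrinks these differences. For PSAF the mean ratios were 0.257 in del-cIDR and 0.677 in FL, and the fitted difference was 1.52-fold. For PSAF the difference between del-cIDR and its inactive form was -0.26 ± 0.26.

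As deposited, all 9 genes with a peak had lower m6A ratios in all 4 lines. Their input signal was called higher in both del-cIDR forms, except for PDE334 in del-cIDR (0.09). Of all features 65.5% were called higher in del-cIDR and 32.4% in its inactive form. In the full-length lines the input changes of the 9 genes ranged from -0.55 (PSAG in FL) to 0.29 (PSAD-1 in inactive FL). The 23 genes without a peak include PSBS and PSAO, which had the largest input changes in inactive del-cIDR.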

How the data were processed

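MeRIP-seq libraries of chromatin-associated RNA were grouped by the genotype and library type in the labels, 2 IP and 2 input libraries for each of 5 genotypes. The expression table holds a signal per feature as deposited by the authors; its values look scaled to ERCC spike-ins. A search for whole reads tried many step sizes on the low values. At the best step, 11.1% to 23.5% of these values lay within 0.05 step of a whole multiple. By chance 1 fixed step would give 10%, so the best of many cannot settle whether whole reads are recoverable. Each m6A peak has a ratio, also as deposited, that gives the m6A spike-in 1 common value in all IP libraries, and 37 values are 0; the denominator is not given in the sources used here. Per the submitters' processing notes, the tools were bedtools, featureCounts, MACS2, Picard, SAMtools, HISAT2 and fastp, with build TAIR10 and no versions. Depth is unknown, so no counting interval is given, and 0 columns belong to other samples.

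Values were analysed as log2(value + pseudocount), the pseudocount being the 5th percentile of non-zero values. limma 3.58.1 (R 4.3.3, trend in the prior variance) fitted 5 group means to the 10 libraries of each table, and 8 contrasts, 1 more added later, were tested two-sided with Benjamini-Hochberg adjustment over 30613 features or 2291 peaks, without a replicate block. The fit was tested on simulated data. Peaks were assigned by at least 50% overlap with a gene of a TAIR10.1 table, which also gave names and overlaps. The genes and lists were chosen with earlier results of these data known; the clock genes were added after seeing the data. Values in every library are given for the 3 genes of smallest p per contrast and direction, the gene of highest Col-0 signal in each role and genes with a peak, and at most 2 genes of each other list. Alternatives were other pseudocounts, filters, scalings, variance models, sample sets, a replicate block and omission of single libraries. Figures used matplotlib 3.10.9 in Python 3.11.15.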

Additional observations from a re-analysis of the deposited data

Results flagged for a closer look

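The effect of the active form against its H204A form differed between del-cIDR and FL for 21 of the 32 genes by limma's test of the difference itself (adjusted p under 0.05). On the log2 scale the difference, del-cIDR minus FL, was -1.11 for PSBS, -0.71 for FNR1, -0.68 for PSAH2, -0.62 for ATPD, -0.56 for PSAD-1, -0.55 for PSAD-2 and -0.52 for PSBO2. It was -0.47 for PSAN, -0.45 for FD2, -0.44 for PSBW, -0.41 for PSAF, -0.39 for PSBX, -0.38 for PSBY and -0.37 for PSAK. Values of -0.35 were found for PETE2 and PETE1, -0.34 for PDE334 and PSAO, and -0.29 for PSBP-1. The positive differences were 0.29 for PSBQ-2 and 0.42 for PSAE-2. For PSBS the effect in del-cIDR was -1.01 and in FL 0.10. For PSAE-2 these were 0.18 and -0.24. The call was lost for PSAH2 without FL replicate 1 (-0.49), for PSBX without inactive del-cIDR replicate 2 (-0.32), and for PETE1 without FL replicate 1 (-0.31), inactive FL replicate 1 (-0.31), del-cIDR replicate 2 (-0.30), inactive del-cIDR replicate 1 (-0.36) or inactive del-cIDR replicate 2 (-0.35). Under median-centring 4 of these genes kept the call: PSBS (-0.79), FNR1 (-0.39), PSBQ-2 (0.61) and PSAE-2 (0.74).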

How the results depend on the processing

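The higher signal of the 32 genes in del-cIDR than in FL and in inactive del-cIDR than in inactive FL, and their lower signal in del-cIDR than in inactive del-cIDR, kept direction and count within 1.5 times under every alternative run. Median-centring gave 20 called genes in del-cIDR against Col-0, 32 in FL against Col-0, 14 in inactive FL against Col-0, 32 in FL against inactive FL and 8 for the difference of the activity effects; the balance of directions turned in both full-length lines against Col-0 and in the difference of effects. Centring on the level window gave 29 in FL and 15 in inactive FL against Col-0, turned, and 32 in FL against inactive FL. Without the variance trend the counts were 8 in FL, 3 in inactive FL, 1 in FL against inactive FL and 4 for the difference of effects. FL against inactive FL gave 5 with only those groups fitted and 4 under unmodified spike-in scaling. Under median-centring and low-end alignment 0 of 9 m6A peaks were called against Col-0 in any line. Apart from scaling and the variance trend, whose part is in their construction, the cause was not tested.

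Median-centring turned 17 of the 32 genes in FL, among them PSAD-2 (-0.49), PSAO (-0.59) and PSBS (-0.51), and 15 in inactive FL. It turned 9 in del-cIDR, namely PETC (-0.12), PSAE-2 (-0.13), PSAF (-0.02), PSBO1 and PETE1 (-0.14), PSBR (-0.19), PSBY (-0.36), FD2 (-0.37) and PDE334 (-0.53, not called as reported), as well as PSAE-2 alone in inactive del-cIDR (-0.08). Of the genes followed in the other comparisons it turned PSAE-2 between the del-cIDR forms (-0.05), and PSBP-1 in the difference of effects (0.03). Window centring turned 17 in FL, among them PSAD-2 (-0.09), PSAO (-0.19) and PSBS (-0.11), 7 in inactive FL, 4 in del-cIDR, namely PSBR (-0.02), PSBY (-0.19), FD2 (-0.20) and PDE334 (-0.36), and PSAE-2 between the del-cIDR forms (-0.05).

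Leaving out 1 library at a time gave 29 to 31 called genes for del-cIDR, 31 to 32 for its inactive form, 16 to 20 in FL and 15 to 19 in inactive FL, each against Col-0. It gave 32 in del-cIDR against FL, 31 to 32 between the inactive forms, 23 to 28 between the del-cIDR forms, 4 to 10 between the FL forms and 19 to 23 for the difference of effects. For m6A the ranges were 9 to 9 peaks in del-cIDR, 8 to 9 in each other line and 0 to 5 for del-cIDR against FL. With replicate number as a block every count was the same, for example 31 for del-cIDR and 32 for its inactive form against Col-0. Deviations of same-numbered libraries from their genotype means correlated between genotypes at -0.03 to 0.11 in the input and -0.23 to 0.35 in m6A. The replicate numbers were therefore taken only as names. A filter at the median m6A level left none of the 9 peaks and gave no value.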
